A study of Homo sapiens with 18 samples.

Results

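Gene expression was compared between 2 glioma cell lines that carry the same CRISPR guide, with 3 RNA-seq libraries labelled U118-MG sgDDA1 set against 3 libraries labelled LN229 sgDDA1. These are 6 of the 18 libraries of the series, which also holds T98G and, for every line, libraries labelled with a control guide (sgCon). The members of the comparison are the 21720 genes that passed a count filter, out of 46218 gene IDs counted. The filter tested no difference between the lines. It asked for enough counts in as many libraries as a group holds, so a gene expressed in a single line could pass. All cells grew in DMEM with fetal bovine serum and are labelled as glial cells of the type glioma, and the guide against DDA1 is common to both groups. U118-MG and LN229 are established human glioblastoma lines kept as adherent cultures. Levels are CPM, counts relative to library size, scaled by the trimmed mean of M-values (TMM), fold changes are U118-MG over LN229 on the log2 scale with the standard error (SE) from the fit, and adjusted p-values are from edgeR's quasi-likelihood test with Benjamini-Hochberg adjustment over all genes tested. Nothing in the labels tells whether replicate libraries come from separate cultures, and the p-values then reflect a spread that may be only technical.

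Glioblastoma lines are commonly described along an axis between a mesenchymal state, with matrix, adhesion and wound-response genes, and neural or progenitor-like states, with developmental transcription factors. CD44, vimentin, fibronectin and the receptor AXL are textbook genes of the mesenchymal end, and SOX2 and OLIG2 of the progenitor end. DDA1 is a small subunit of CRL4 ubiquitin ligases, in which the scaffold CUL4 and the adaptor DDB1 present proteins bound by exchangeable DCAF receptors for ubiquitination.

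The labels were checked against marker genes. GFAP, the classical astrocyte filament, had 0.878, 0.659 and 0.388 CPM in U118-MG sgDDA1 and 0.739, 0.6595 and 0.443 CPM in LN229 sgDDA1, and S100B stayed below the count filter with at most 0.258 CPM in any of the 6 libraries. Of 19 glial markers, 7 reached a mean of 1 CPM in U118-MG and 11 in LN229, and none was at 0 in all libraries of a group. CDKN2A (ENSG00000147889, chr9:21967753-21995301), which encodes the cell cycle inhibitor p16 and the protein ARF, had 0.129, 0.146 and 0.218 CPM in U118-MG and 53.4, 58.8 and 54.9 CPM in LN229. LN229 is on record as a line with a homozygous loss of CDKN2A, so the transcript goes against the label of these 3 libraries. The libraries labelled LN229 sgCon had 53.9 ± 3.66 CPM (SD, n = 3, scaled over all 18 libraries). The mesenchymal glioma markers CD44 and VIM averaged 3.77 and 64.7 CPM in the libraries labelled LN229 sgDDA1. Which cells these libraries hold was not established, and they are called LN229 only as their labels have it. U118-MG, known to lack CDKN2A, had traces of its reads.

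The libraries labelled U118-MG sgCon could not serve as the control of their line. On the scale over all 18 libraries FN1, which encodes fibronectin, had 38156, 34620.4 and 33818 CPM in U118-MG sgDDA1, 829.8, 843 and 628 CPM in U118-MG sgCon, and 65.3 to 70.1 CPM in LN229 sgDDA1. IRS4, an insulin receptor substrate, had 1.59, 1.49 and 1.84 CPM in U118-MG sgDDA1, 597, 929 and 1141 CPM in U118-MG sgCon, and 2784, 3152 and 3053 CPM in LN229 sgDDA1. The control group thus lay between the 2 lines in both genes, in all 3 of its libraries. It was above both in CDKN2A, with 121.7, 67.7 and 68.5 CPM, so the transcript goes against the label here too. A lasting difference between the lines and a difference in how they responded to the guide therefore cannot be told apart here. With LN229 sgCon in place of LN229 sgDDA1, 17369 genes were called, against 17637 in the comparison as designed.

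Library totals were 44.9 to 48.3 M counts in U118-MG sgDDA1 and 48.4 to 55.1 M in LN229 sgDDA1. A floor of 3 counts in a library equals at most 0.0775 CPM in U118-MG and 0.0532 CPM in LN229. TMM factors were 0.852 to 0.863 in U118-MG and 1.16 to 1.18 in LN229. Scaling by library totals alone moved the median log2 fold change of all genes by -0.45, upper quartile factors by -0.17 and DESeq2-type (RLE) factors by 0.01. FN1 alone took 2.77% to 3.15% of the counts in U118-MG and at most 0.00806% in LN229. Values below hold relative to that choice of scale, and differences smaller than 0.45 on the log2 scale toward higher levels turn with it. RNA-seq of bulk cells measures shares of RNA, so fewer cells of a kind and less RNA per cell cannot be told apart.

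Of the 21720 genes, 17637 were called at an adjusted p under 0.05, which is 81.2% of those tested. Of these, 8511 were higher in U118-MG (39.2% of genes tested) and 9126 lower (42% of genes tested). At 2-fold or more, 5300 genes were called higher (24.4%) and 6010 lower (27.7%), and these shares are the background for each gene group below. The 3 libraries of one group lay wholly above or below the 3 of the other in 18020 genes, 83.0% of those tested. By library totals 6243 genes were called higher and 11804 lower, in place of the nearly even split that TMM gives and that RLE factors (8560 higher and 9064 lower) give too. Differences of 16-fold or more were called in 1621 genes higher and 2038 lower in U118-MG. Abundant genes leaned one way at 2-fold or more: above a mean of 100 CPM, 760 of 2261 genes were higher and 218 lower. Below 1 CPM, 1439 of 5927 genes were higher and 2268 lower. The background thus depends on level, and the shares over all genes are not matched to the level of a list.

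**Figure D1:**
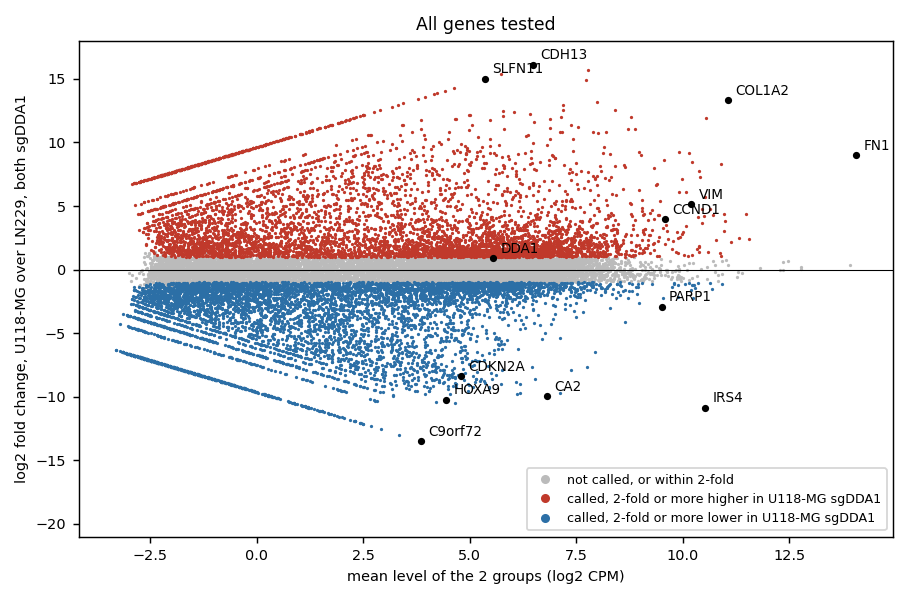
Log2 fold change of U118-MG sgDDA1 over LN229 sgDDA1 (vertical axis) against the mean level of both groups in log2 CPM (horizontal axis), 1 point for each of 21701 of the 21720 genes tested. Red points were called and 2-fold or more higher in U118-MG, blue points 2-fold or more lower, grey points neither, and 13 genes described in the text are marked in black. The straight edges are genes with no counts in one of the groups, whose fitted fold change depends on the fit's prior count.

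DDA1 (ENSG00000130311, chr19:17309518-17323301), the gene under the guide, had 63.5, 56.8 and 61.2 CPM in U118-MG sgDDA1 and 33.5, 31.4 and 34.3 CPM in LN229 sgDDA1. All 3 U118-MG libraries were higher, with no overlap, and the log2 fold change was 0.87 (SE 0.06, adjusted p = 9.47e-09). It was 0.43 with library totals and 0.36 against LN229 sgCon, called in both cases. A guide can cut a gene without lowering its transcript, so these levels do not measure how much DDA1 protein was left in either line. Of 37 genes for CRL4 subunits, DCAF receptors and the COP9 signalosome, which removes the NEDD8 tag from cullins, 14 were called higher and 17 lower, but only 2 and 5 at 2-fold or more. DDB2, the receptor that recognises ultraviolet lesions, had 171, 176 and 169 CPM in U118-MG and 21.2, 22.9 and 22.4 CPM in LN229, a log2 difference of 2.96 (SE 0.06, adjusted p = 2.38e-15). COPS8, a signalosome subunit, was the other one at 2-fold higher, with 202 against 68.6 CPM. DTL, the receptor that marks replication licensing factors for destruction, was lower with 48.3 against 151 CPM, and so were DCAF12 with 28.3 against 91.1 CPM and DCAF16 with 59.6 against 128 CPM. The scaffold CUL4A had 111 against 112 CPM and was not called (adjusted p = 0.837), but it was called lower with library totals (-0.46), with upper quartile factors (-0.18) and against LN229 sgCon (-0.30). The scaffold CUL4B had 159 against 256 CPM and the adaptor DDB1 361 against 429.8 CPM. At 2-fold or more, 2 and 5 of 37 genes are smaller shares than the 24.4% and 27.7% of all genes.

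The largest differences were genes on in one line and without counts in the other. CDH13 (ENSG00000140945, chr16:82626803-83800640), which encodes T-cadherin, a cadherin held in the membrane by a lipid anchor, had 165, 184 and 186 CPM in U118-MG and 0 counts in all 3 LN229 libraries, at least 3349-fold higher against the floor of 3 counts per library. SLFN11 (ENSG00000172716, chr17:35350305-35373701), a DNA and RNA helicase family protein known to sensitise cells to replication stress, had 78.3, 84.2 and 84.9 CPM in U118-MG and 0 counts in LN229, at least 1552-fold higher. AJAP1, a junction protein, had 440.1, 437 and 437 CPM in U118-MG and 1 count in all LN229 libraries together, a ratio of 77504-fold (95% counting interval 13910.4 to 3061228). The adenylyl cyclase ADCY8 was at least 1989-fold higher, the extracellular superoxide dismutase SOD3 at least 927-fold, the neural adhesion protein NTM at least 705-fold and the docking protein EFS at least 522-fold. SERPINB2, the plasminogen activator inhibitor of type 2, had 335, 465 and 473 CPM in U118-MG and 2 counts in LN229 in all. GSTM1, POTED and SPANXD were also without counts in LN229, but they have near-identical copies that can share reads, so their levels are uncertain, and GSTM1 is absent from the genome of many people.

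In the other direction C9orf72 (ENSG00000147894, chr9:27546545-27573866), a regulator of membrane traffic and autophagy, had 0 counts in all U118-MG libraries and 28.1, 31.7 and 26.3 CPM in LN229, at least 371-fold lower. The orphan receptor GPR27 was at least 262-fold lower, the cytoskeletal protein GAS7 at least 195-fold, the neural zinc finger factor MYT1 at least 166-fold, the Notch effector HEYL at least 141-fold and HOXA7 at least 138-fold. IRS4 (ENSG00000133124, chrX:108732482-108736409) carried the largest of these changes at a high level, with 1.52, 1.44 and 1.77 CPM in U118-MG and 2724, 3075 and 3013 CPM in LN229 and a log2 difference of -10.86 (SE 0.09, adjusted p = 5.12e-18). Its count in U118-MG was 59 to 73 per library. The carbonic anhydrase CA2 had 0.103, 0.2196 and 0.339 CPM in U118-MG and 227, 233 and 212 CPM in LN229. The transcription factors ZNF518B and CUX2, the transporter SLCO4C1, the CNTF receptor CNTFR, the fatty acid binding protein FABP5 and the apoptosis regulator CAAP1 had at most 4 counts in any U118-MG library and means of 12.6 to 49.9 CPM in LN229. In all, 52 genes had at least 10 CPM in U118-MG with 3 or fewer counts over the 3 LN229 libraries, and 32 genes the reverse.

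**Figure D2:**
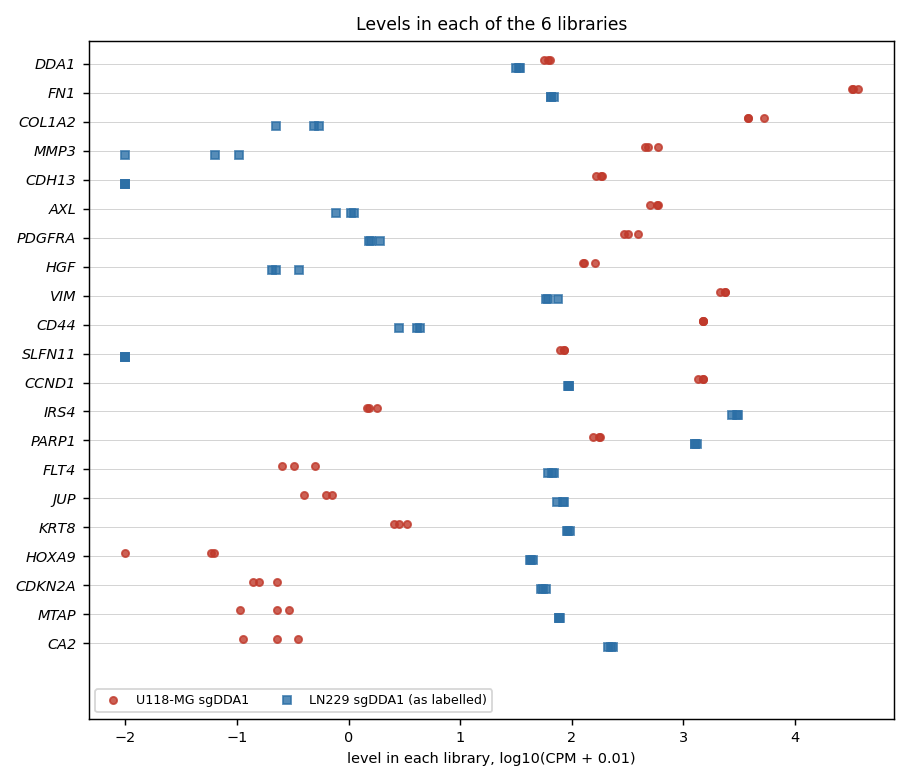
Level of 21 genes in each of the 6 libraries as log10(CPM + 0.01), with U118-MG sgDDA1 as red circles above LN229 sgDDA1 as blue squares for each gene. Replicates sit close together except near the floor, where those of genes such as HOXA9 and CA2 in U118-MG are spread. In every gene shown the 3 libraries of one group lie apart from the 3 of the other, DDA1 by the smallest gap.

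Promoters of such genes were read from RefSeq (GRCh38.p14, 250 bases before to 50 after the start), which held 29 of the 34 protein-coding genes on in U118-MG alone and 20 of the 27 on in LN229 alone. The number of CG dinucleotides, the sites of DNA methylation, had a median of 11 in the first set, 24 in the second and 25 over the 11985 protein-coding genes tested that have a promoter there. At least 10 CG were present in 55.2% of the first set, 80% of the second and 84.6% of all. Over the 6885 promoters of genes at 10 CPM or more in both groups, the median was 27 and 93.7% had at least 10 CG. Methylation was not measured, and the count describes the sequence alone. The promoters of 2 genes at or near 0 in LN229 and 2 at or near 0 in U118-MG are shown because they differ widely in CG, with every CG in capitals. HOXA9, with 4 counts over the U118-MG libraries, lies just outside the second set. SLFN11 lies on chr17:35373572-35373871 (minus strand, 18 CG), SERPINB2 on chr18:63887455-63887754 (plus strand, 1 CG), HOXA9 on chr7:27165488-27165787 (minus strand, 22 CG) and HOXA7 on chr7:27156626-27156925 (minus strand, 31 CG).
SLFN11: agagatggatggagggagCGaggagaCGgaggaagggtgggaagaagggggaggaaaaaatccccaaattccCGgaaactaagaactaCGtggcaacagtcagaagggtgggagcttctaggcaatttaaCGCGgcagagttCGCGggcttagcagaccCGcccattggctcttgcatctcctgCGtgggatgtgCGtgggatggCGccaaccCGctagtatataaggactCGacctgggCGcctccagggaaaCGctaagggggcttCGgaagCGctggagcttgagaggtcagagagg
SERPINB2: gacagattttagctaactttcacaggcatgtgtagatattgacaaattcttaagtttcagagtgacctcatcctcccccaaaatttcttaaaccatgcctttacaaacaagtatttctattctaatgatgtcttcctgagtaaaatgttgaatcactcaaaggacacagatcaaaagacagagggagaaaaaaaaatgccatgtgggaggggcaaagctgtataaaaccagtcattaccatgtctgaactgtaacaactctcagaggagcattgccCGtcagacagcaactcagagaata
HOXA9: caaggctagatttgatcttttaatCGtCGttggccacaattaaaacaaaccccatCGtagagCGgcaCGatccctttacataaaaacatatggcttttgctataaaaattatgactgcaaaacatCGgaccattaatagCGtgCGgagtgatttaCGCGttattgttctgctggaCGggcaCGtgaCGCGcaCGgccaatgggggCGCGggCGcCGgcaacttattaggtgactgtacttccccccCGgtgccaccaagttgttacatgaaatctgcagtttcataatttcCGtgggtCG
HOXA7: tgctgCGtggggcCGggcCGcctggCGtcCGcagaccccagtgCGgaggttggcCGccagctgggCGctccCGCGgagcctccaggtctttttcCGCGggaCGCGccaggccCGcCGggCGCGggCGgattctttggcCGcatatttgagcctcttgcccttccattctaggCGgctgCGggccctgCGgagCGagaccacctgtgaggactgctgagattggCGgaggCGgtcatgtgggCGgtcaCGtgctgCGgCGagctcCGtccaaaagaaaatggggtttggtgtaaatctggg
SLFN11 and SERPINB2 both had counts at or near 0 in LN229. The first has 18 CG in its promoter, under the median of 25 over all, and the second has 1.

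Matrix genes were among the most abundant of U118-MG. FN1 (ENSG00000115414, chr2:215360440-215436172) had 36549, 33367 and 32437 CPM in U118-MG and 68.6, 65.3 and 64.5 CPM in LN229, a log2 difference of 9.01 (SE 0.07, adjusted p = 5.12e-18). COL1A2 (ENSG00000164692, chr7:94394561-94431232), a chain of type I collagen, had 5232, 3811 and 3805 CPM in U118-MG and 0.211, 0.534 and 0.479 CPM in LN229, a log2 difference of 13.33 (SE 0.20, adjusted p = 3.52e-16). Per length, FN1 had 1697 ± 117 FPKM in U118-MG and 4.48 ± 0.175 FPKM in LN229 (SD, n = 3), and COL1A2 339 ± 67.4 and 0.0439 ± 0.0183 FPKM. The 5 most abundant genes of both groups by FPKM were mitochondrially encoded, among them MT-CO1 with 9752 ± 204 FPKM in U118-MG and 10153 ± 57.5 FPKM in LN229. The deposited FPKM are not on the TMM scale, on which MT-CO1 was called higher in U118-MG with a log2 difference of 0.39 (SE 0.04, adjusted p = 7.59e-07).

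Of 33 collagen genes tested, 17 were called 2-fold or more higher and 8 lower in U118-MG, with a median log2 fold change of 2.41 against -0.07 over all genes. The fibrillar COL5A2 with 570.4 against 3.89 CPM and the microfibril chain COL6A3 with 1329.7 against 12.8 CPM were higher. The cartilage collagen COL2A1 with 0.0755 against 27.6 CPM and the basement membrane chain COL4A6 with 4.19 against 50.4 CPM were lower. Of 55 matrix proteins and proteases, 40 were 2-fold or more higher and 6 lower (median 4.14). MMP3 and MMP1, secreted proteases that degrade matrix, had 511 against 0.0491 CPM and 884 against 0.2096 CPM. POSTN, which encodes periostin, had 585 against 0.326 CPM. The fibulin FBLN1 with 0.7497 against 77.7 CPM, the fibrillin FBN2 with 5.53 against 138 CPM and the nidogen NID1 with 53.3 against 252 CPM were among the 6 lower in U118-MG by 2-fold or more.

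Integrins, the receptors for matrix, and laminins, which are matrix proteins of basement membranes, were listed together. Of 30 integrin and laminin subunits, 23 were 2-fold or more higher and 6 lower (median 2.41). ITGB1, the shared beta chain, had 3721, 3893 and 3854 CPM in U118-MG and 179.5, 182 and 181 CPM in LN229, a log2 difference of 4.40 (SE 0.05, adjusted p = 3.18e-17), and no library of one group reached the other. ITGA3, a laminin receptor chain, had 1319.7 against 13.4 CPM, the collagen receptor chain ITGA11 241 against 1.95 CPM and the laminin chain LAMA4 1028 against 23.1 CPM. ITGA8, ITGA9, LAMA1, LAMA3 and LAMC3 were among those lower. Of 20 actin cytoskeleton and contractile genes 13 were 2-fold or more higher and 4 lower, led by the myosin light chain MYL9 with 47.8 against 0.164 CPM.

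Cell to cell adhesion genes went in both directions. Of 23 cadherins and catenins, 11 were 2-fold or more higher and 7 lower in U118-MG (median 0.58). CDH11, a mesenchymal cadherin, had 271, 217 and 223 CPM in U118-MG and 0.211, 0.173 and 0.177 CPM in LN229, and CDH6 78.98 against 0.162 CPM. The neural catenins CTNND2 and CTNNA2 were higher too, with 21.8 against 0.00587 CPM and 6.89 against 0.0223 CPM. JUP, the plakoglobin of desmosomes and adherens junctions, had 0.6198, 0.3904 and 0.703 CPM in U118-MG and 85.3, 73.96 and 82.7 CPM in LN229, a log2 difference of -7.14 (SE 0.13, adjusted p = 1.45e-15). The placental cadherin CDH3 was lower with 0.271 against 8.29 CPM. Of 44 protocadherins tested, 36 were 2-fold or more higher and 5 lower (median 5.12). PCDHGC3 had 256 against 6.09 CPM and PCDHGB4 50.001 against 0.0118 CPM, while PCDH9 had 25.9 against 117 CPM and PCDH19 0.00861 against 3.19 CPM. Clustered protocadherins share 3' exons and near-identical sequence, so reads can pass between members and their single values are uncertain.

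Receptor tyrosine kinases split into opposite sets. Of 34 tested, 14 were 2-fold or more higher and 14 lower in U118-MG, and their median of 0.24 became -0.20 with library totals. AXL, a receptor of the TAM family, had 499, 585 and 591 CPM in U118-MG and 1.04, 0.754 and 1.12 CPM in LN229, a log2 difference of 9.18 (SE 0.12, adjusted p = 6.73e-17). PDGFRA (ENSG00000134853, chr4:54229097-54298247), a receptor for platelet-derived growth factor often active in glioma, had 390.1, 318 and 294 CPM in U118-MG and 1.88, 1.57 and 1.52 CPM in LN229, a log2 difference of 7.65 (SE 0.13, adjusted p = 7.27e-16), and PDGFRB 135 against 0.737 CPM. In these receptors the lowest U118-MG library lay far above the highest LN229 library. EGFR had 359.996 against 39.3 CPM and MET 461 against 69.1 CPM, both called higher, and the neural receptor ALK 79.9 against 0.237 CPM. Lower in U118-MG were the vascular growth factor receptors FLT4 (0.491, 0.317 and 0.242 CPM, against 66.9, 61.7 and 69.7 CPM in LN229) and FLT1 (0.0902 against 20.6 CPM), the fibroblast growth factor receptors FGFR2 (0.189 against 36.3 CPM) and FGFR3 (0.455 against 65.8 CPM), and the neurotrophin receptor NTRK2 (0.0825 against 7.66 CPM).

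Growth factor ligands were mostly higher, 24 of 32 tested at 2-fold or more and 5 lower (median 2.86). HGF, the ligand of MET, had 160.1, 129.8 and 127 CPM in U118-MG and 0.211, 0.345 and 0.195 CPM in LN229, a log2 difference of 9.08 (SE 0.15, adjusted p = 8.45e-16). NRG1, a ligand of ERBB receptors, had 172 against 0.264 CPM, VEGFC 155 against 0.648 CPM and VEGFA 626 against 80.2 CPM. NTF3, a neurotrophin, was at 0 counts in LN229 and averaged 7.61 CPM in U118-MG. The 2 sides of a ligand and receptor pair could differ in direction: VEGFC was higher and its receptor FLT4 lower in U118-MG. Of 55 axon guidance genes 14 were 2-fold or more higher and 22 lower, the higher ones a share near the background. SEMA5A with 283 against 0.0693 CPM, the netrin NTN4 with 403 against 4.82 CPM and the semaphorin receptor NRP1 with 577 against 16.6 CPM led the higher ones, and the ephrin receptors EPHA7 with 0.6497 against 60.5 CPM and EPHB6 with 0.0404 against 9.803 CPM were among the lower ones.

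Every one of 26 genes of the mesenchymal glioma state was called 2-fold or more higher in U118-MG (median 6.12), also without U118-MG library 1. CD44, the hyaluronan receptor, had 1493, 1505 and 1494 CPM in U118-MG and 2.799, 4.13 and 4.395 CPM in LN229, a log2 difference of 8.63 (SE 0.12, adjusted p = 1.33e-16). S100A6 had 937 against 0.433 CPM, the methyltransferase NNMT 103 against 0.115 CPM and osteopontin (SPP1) 24.8 against 0.0341 CPM. Under scaling by library totals 24 of the 26 stayed at 2-fold or more, and none was called lower. VIM, which encodes vimentin, had 2131, 2361 and 2377 CPM in U118-MG and 61.01, 74.6 and 58.5 CPM in LN229, and NES, the stem cell filament nestin, 67.1 against 55.9 CPM. Of 16 glial markers tested, 5 were 2-fold or more higher and 7 lower. The proteoglycan CSPG4 (287 against 17.2 CPM), the gap junction protein GJA1 (321 against 63.98 CPM) and SOX9 (65.4 against 11.03 CPM) were higher, and the progenitor factors SOX2 (0.359 against 17.5 CPM) and OLIG2 (0.0496 against 4.77 CPM) and the water channel AQP4 (0.0162 against 3.01 CPM) lower.

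Markers of other cell types were measured beside these. Of 16 fibroblast and pericyte markers 11 were 2-fold or more higher in U118-MG and 4 lower, with a summed level of 7774 to 9796 CPM in U118-MG and 210.01 to 222 CPM in LN229. FAP had 109 against 0.0222 CPM, THY1 472 against 0.256 CPM and the proteoglycan LUM 568 against 0.718 CPM, while MCAM had 1.19 against 49.4 CPM. All 16 reached 1 CPM in U118-MG. The 12 immune markers summed to 4.41 to 5.47 CPM in U118-MG and 5.51 to 7.31 CPM in LN229. The 10 endothelial markers summed to 27.3 to 29.4 CPM in U118-MG and 4.33 to 5.72 CPM in LN229, with TIE1 at 12.1 against 0.0576 CPM and PECAM1 at 7.86 against 0.0445 CPM. The 20 epithelial markers summed to 22.6 to 25.1 CPM in U118-MG and 156 to 159 CPM in LN229, and of the 15 tested 8 were called lower and 5 higher, 7 and 4 of them by 2-fold or more. KRT8, a keratin of simple epithelia, had 2.81, 3.32 and 2.54 CPM in U118-MG and 90.1, 91.7 and 95.7 CPM in LN229, and its partner KRT18 0.445 against 30.2 CPM. The simple keratin KRT7 was higher with 3.28 against 0.0229 CPM. Neuronal markers split: SNAP25 had 54.3 against 0.0845 CPM, while the neurofilaments NEFL and NEFM had 0.7898 against 54.3 CPM and 0.1904 against 30.4 CPM. The part of other cell types in the differences between the lines was not tested.

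HOX genes, which set position along the body axis and are silent in most of the adult brain, were lower in U118-MG, with HOXC5 the exception among those tested (0.779 against 0.551 CPM, adjusted p = 0.142). All 11 HOXA, 9 HOXB and 8 HOXD genes tested were called 2-fold or more lower, and 8 of 9 in HOXC, with median log2 fold changes of -7.54, -3.82, -8.42 and -1.98 (-7.10 for HOXA with HOXA7 at its bound). HOXA9 had 0.0516, 0.0488 and 0 CPM in U118-MG and 45.2, 42.7 and 42.2 CPM in LN229. HOXD10 had 0.0824 against 50.8 CPM, HOXD13 0.1996 against 67.1 CPM and HOXB9 0.204 against 59.1 CPM. HOXA genes summed to 0.568 to 0.927 CPM in U118-MG and 186 to 199 CPM in LN229, and HOXD genes to 0.366 to 0.491 and 163 to 166 CPM. HOXC kept part of its level, with HOXC4 at 8.47 against 39.2 CPM and HOXC10 at 3.75 against 14.7 CPM, a sum of 30.3 to 33.7 CPM in U118-MG. No HOX gene was called higher.

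**Figure D3:**
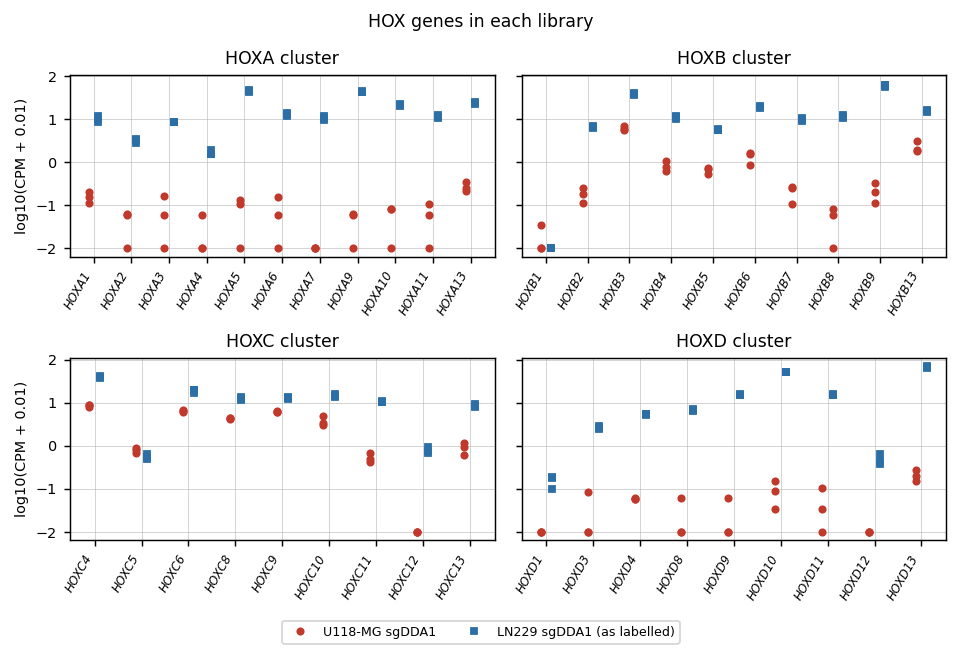
Level of each HOX gene in each library as log10(CPM + 0.01), by cluster and gene number, with U118-MG sgDDA1 as red circles to the left of LN229 sgDDA1 as blue squares. HOXA and HOXD sit near the floor in U118-MG, while HOXC4 to HOXC10 keep levels of 1 CPM or more in both lines but for HOXC5.

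Other patterning factors went both ways, with 19 of 61 at 2-fold or more higher and 32 lower (median -1.26). PRRX1, a homeobox factor of mesenchyme, had 374, 330.4 and 327 CPM in U118-MG and 0.229, 0.314 and 0.301 CPM in LN229, a log2 difference of 10.24 (SE 0.11, adjusted p = 2.21e-17). SOX11, PAX8 and TBX15 were higher with 17.9 against 0.0813 CPM, 21.2 against 0.113 CPM and 13.6 against 0.0831 CPM. The forebrain factors OTX2 (0.00861 against 7.896 CPM) and EMX2 (0.0163 against 8.29 CPM) and the neural POU3F3 (0.148 against 36.2 CPM) were lower. Among oncofetal and imprinted genes the mRNA binding proteins IGF2BP1 (1.3998 against 333 CPM) and LIN28B (0.855 against 177 CPM) and PLAGL1 (0.2403 against 92.1 CPM) were lower, and MEST (224 against 0.243 CPM) and PEG10 (167 against 1.87 CPM) higher, 7 each way at 2-fold of 18 tested.

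A run of neighbouring genes on the short arm of chromosome 9 was near 0 in U118-MG. Runs were picked by level: at least 4 successive protein-coding genes with means of at least 5 CPM in one group and at most 0.5 CPM in the other. Genes under 5 CPM in the higher group were skipped, and the low and high levels of a run follow from how it was picked. Among protein-coding genes with at least 5 CPM in LN229, 13 in a row from MLLT3 to C9orf72 (chr9:20341665-27573866, GENCODE 29 on GRCh38, 7.23 Mb) had means of at most 0.2 CPM in U118-MG, and means of 6.11 to 77.1 CPM in LN229. Besides CDKN2A the run holds CDKN2B, a second cell cycle inhibitor, MTAP, an enzyme of the methionine salvage pathway, and FOCAD. MTAP had 0.284, 0.2196 and 0.0969 CPM in U118-MG and 78.5, 76.5 and 76.3 CPM in LN229, a log2 difference of -8.58 (SE 0.13, adjusted p = 4.41e-16). KLHL9 had 0.138 against 57.8 CPM, ELAVL2 0.0507 against 31.7 CPM, PLAA 0.09805 against 50.3 CPM and MOB3B 0.0172 against 18.2 CPM. The antisense gene CDKN2B-AS1 was at 0 counts in U118-MG, but whether counting used strand is not given, so its reads in LN229 cannot be told from those of overlapping genes. Outside the run HAUS6 had 119 against 166 CPM and ACO1 589 against 65.3 CPM, though PLIN2, next to HAUS6, had 1.13 against 23.2 CPM. ACER2, the protein-coding gene tested just before MLLT3, had 0.335 against 4.53 CPM, and RPS6 before it 582 against 1324 CPM. After C9orf72, which starts 5.58 Mb from the start of CDKN2A, the next one tested was ACO1 at 10.4 Mb. DNA copy number was not measured.

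**Figure D4:**
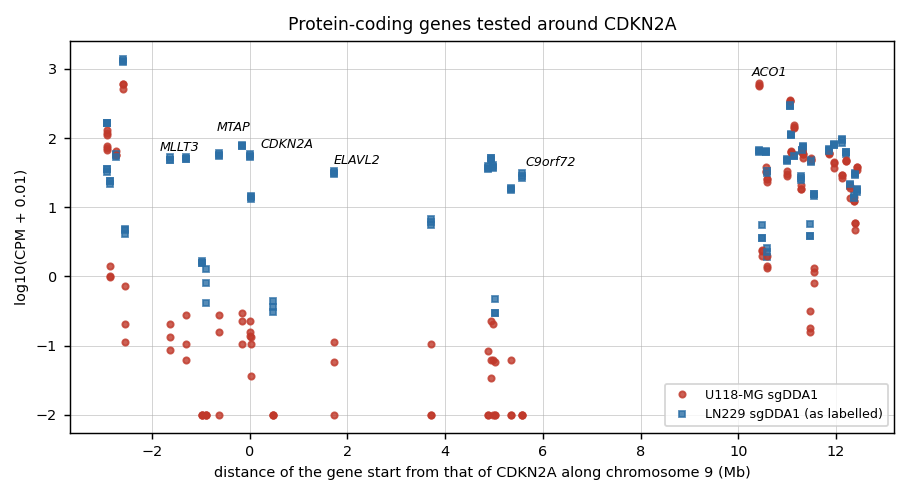
Levels of protein-coding genes tested around CDKN2A as log10(CPM + 0.01), by the distance of the gene start from that of CDKN2A in Mb, with U118-MG sgDDA1 as red circles and LN229 sgDDA1 as blue squares, 3 libraries each. Between MLLT3 and C9orf72 every U118-MG value lies at or under 0.284 CPM, and most genes from ACO1 onward were expressed in both groups.

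A second such run on chromosome 1 held 6 genes from LRRIQ3 to SLC44A5 (chr1:74026015-75611116), with means of at most 0.181 CPM in U118-MG and 9.96 to 62.2 CPM in LN229. CRYZ, a quinone reductase, had 0.155, 0.146 and 0.242 CPM in U118-MG and 23.7, 26.7 and 24.8 CPM in LN229, and TYW3, a tRNA modifying enzyme, 0.0831 against 38.9 CPM. The other runs low in U118-MG were 9 HOXA genes, 6 HOXD genes and 4 genes on chromosome 11 from KCNJ11 to KCNC1, both potassium channel genes. Low in LN229 were 8 PCDHB and 7 PCDHG genes on chromosome 5, 7 zinc finger genes on chromosome 19 from ZNF253 to ZNF626, 5 genes from SPANXD to SLITRK2 and 4 around MAGEA3 on the X chromosome, and IL1A, IL1B, IL1RN and PAX8 on chromosome 2. ZNF93, a zinc finger repressor of LINE-1 elements, had 12.7, 15.6 and 16.5 CPM in U118-MG and 0.0352, 0 and 0.0354 CPM in LN229. Over whole chromosomes the median log2 fold change was lowest on X (-0.75, 739 genes), 13 (-0.49, 403 genes) and 4 (-0.48, 784 genes), and highest on 20 (0.61, 555 genes) and 18 (0.47, 361 genes), around -0.07 for all genes.

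Most replication genes were lower in U118-MG. Of 35 licensing and S phase genes 29 were called lower and 2 higher, 15 and 0 of them at 2-fold or more, with a median of -0.86. They summed to 2010 CPM in U118-MG library 1, 2699 and 2704 CPM in libraries 2 and 3, and 4633 to 4723 CPM in LN229, and without library 1 the median was -0.73 with 28 called lower and 3 higher. MCM10, a factor needed to start replication at origins, had 19.3, 32.4 and 29.2 CPM in U118-MG and 127, 129 and 131 CPM in LN229, a log2 difference of -2.26 (SE 0.13, adjusted p = 5.02e-10). CCNE1, cyclin E1, had 5.08 against 27.3 CPM and the helicase subunit MCM4 244 against 465 CPM. Of 35 genes of G2 and mitosis 20 were lower and 10 higher, 5 and 2 at 2-fold or more. On the TMM scale these last shares were below the background on both sides. With library totals 13 of the 35 were 2-fold or more lower, a share no longer below that of all genes (7958 of 21720). MKI67, a marker of cycling cells, had 362, 493 and 466 CPM in U118-MG and 451, 417 and 422 CPM in LN229 and was not called (adjusted p = 0.721). Without U118-MG library 1 it was called higher, with a log2 fold change of 0.17 (adjusted p = 0.00173 by edgeR's quasi-likelihood test), and with library totals lower (-0.41). The mitotic genes summed to 4201 CPM in U118-MG library 1, 5442 and 5355 CPM in libraries 2 and 3, and 5036 to 5122 CPM in LN229. Without library 1, 3 of them were 2-fold or more lower and the median was -0.33 in place of -0.46.

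Cyclins D1 and D2, D-type cyclins that act in the G1 phase with CDK4 and CDK6, went in opposite directions. CCND1 (ENSG00000110092, chr11:69641087-69654474), cyclin D1, had 1352, 1489 and 1497 CPM in U118-MG and 93.01, 95.2 and 93.9 CPM in LN229, a log2 difference of 3.94 (SE 0.06, adjusted p = 2.16e-16). CCND2, cyclin D2, had 0.3099, 0.659 and 0.388 CPM in U118-MG and 110.4, 110.4 and 103 CPM in LN229, a log2 difference of -7.89 (SE 0.13, adjusted p = 4.74e-16). Groups did not overlap in either gene. The partner kinase CDK4 had 139 against 79.1 CPM and RB1 84.2 against 77.03 CPM (adjusted p = 0.0701). RB1 was called higher without U118-MG library 1 (0.21, adjusted p = 0.000621), and lower with library totals (-0.32, adjusted p = 0.000201) and against LN229 sgCon (-0.21, adjusted p = 0.00582), all by edgeR's quasi-likelihood test.

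DNA repair genes differed in both directions. Of 9 mismatch repair and direct reversal genes 3 were called higher and 6 lower, 2 each way at 2-fold or more (median -0.55). These last shares, 22.2% each way, are no larger than the 24.4% higher and 27.7% lower among all genes. MLH3 was higher with 16.3 against 3.18 CPM, and the recognition subunit MSH6 lower by less than 2-fold with 140.4 against 246 CPM. MGMT, which reverses alkylation damage, stayed below the count filter with 0.0516, 0.293 and 0.388 CPM in U118-MG and 0 counts in LN229. PARP1 (ENSG00000143799, chr1:226360691-226408079), the sensor of strand breaks, had 155, 175 and 177 CPM in U118-MG and 1273, 1258 and 1327 CPM in LN229, a log2 difference of -2.93 (SE 0.06, adjusted p = 5.94e-15). Of 27 genes of base and nucleotide excision repair 14 were called higher and 12 lower. By 2-fold or more 4 were higher (14.8%) and 5 lower (18.5%), both shares below those of all genes. The median of 0.22 became -0.23 with library totals. ERCC1, part of an incision nuclease, had 86.8 against 20.8 CPM, and the glycosylase NEIL1 1.41 against 19.4 CPM.

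Of 32 homologous recombination and Fanconi anaemia genes, 23 were called lower and 4 higher, 14 and 1 at 2-fold or more (median -0.74). BLM, a helicase that dissolves recombination intermediates, had 10.9, 16.7 and 16.2 CPM in U118-MG and 99.5, 98.4 and 97.2 CPM in LN229, a log2 difference of -2.75 (SE 0.11, adjusted p = 1.35e-11). EXO1, which resects ends, had 41.8 against 201 CPM and XRCC2, a recombination factor, 45.9 against 199.7 CPM. The 1 gene 2-fold higher was FANCF, with 9.35 against 1.97 CPM. Of 27 end joining and checkpoint genes only H2AX (52.8 against 15.5 CPM) and MDC1 (77.4 against 181 CPM) differed by 2-fold or more, in opposite directions, and PRKDC, the end joining kinase, had 1166 against 921 CPM. With library totals 9 of the 27 were 2-fold or more lower and 1 higher, beside 7958 lower among all 21720 genes.

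Of 32 genes of the damage response and the BCL2 family 13 were 2-fold or more higher and 5 lower (median 0.63). CDKN1A, which encodes the cell cycle inhibitor p21, had 109, 134 and 133 CPM in U118-MG and 23.5, 22.1 and 22.2 CPM in LN229, a log2 difference of 2.47 (SE 0.08, adjusted p = 6.09e-13). The survival gene BCL2L1 had 104 against 10.7 CPM, and BCL2A1 averaged 18.1 CPM in U118-MG with 0 counts in LN229. BTG2, an antiproliferative gene, was lower with 0.626 against 41.8 CPM.

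Signalling target genes were compared by pathway. Of 29 targets of YAP and TEAD, the transcription factors of the Hippo pathway, 22 were 2-fold or more higher and 2 lower (median 1.78), among them the ectoenzyme NT5E with 2985 against 0.757 CPM, IGFBP3 with 2267 against 3.85 CPM and CCN2 with 41.7 against 0.836 CPM. ANKRD1, also a YAP target, was lower with 0.331 against 2.97 CPM. Of 50 TGF-beta and BMP pathway genes 23 were higher and 12 lower at 2-fold or more. The ligand subunit INHBA had 38.8 against 0.224 CPM, its antagonist FST 244 against 0.464 CPM and the coreceptor ENG 149 against 1.35 CPM, and the ligand BMP7 (1.901 against 42.95 CPM), its antagonist CHRD (0.00808 against 8.05 CPM) and the BMP target ID4 (1.901 against 60.7 CPM) were lower. Of 52 WNT pathway genes 17 were 2-fold or more higher and 26 lower. The secreted antagonists DKK3 (299.9 against 7.18 CPM) and SFRP1 (368 against 28.02 CPM) were higher and the stem cell receptor LGR5 (0.00808 against 7.36 CPM) lower. Of 25 Notch pathway genes 6 were 2-fold or more higher and 16 lower (median -3.47). The ligand JAG1 was higher with 80.6 against 11.9 CPM, the ligand JAG2 lower with 0.321 against 47.5 CPM, and NRARP, a Notch target, had 0.155, 0.0488 and 0.218 CPM in U118-MG and 43.9, 42.3 and 44.9 CPM in LN229.

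Inflammatory and antigen presentation genes were mostly higher in U118-MG. Of 40 chemokine, interleukin and NF-kB genes 30 were 2-fold or more higher and 6 lower (median 3.21). CXCL8, a neutrophil chemokine, had 182, 164 and 168 CPM in U118-MG and 0.211, 0.4397 and 0.514 CPM in LN229, and the complement component C3 500.4 against 3.12 CPM. CCL5, a T cell chemokine, went the other way with 0.207, 0.195 and 0.0969 CPM in U118-MG and 121, 163 and 149 CPM in LN229, as did CXCL10 with 0.131 against 9.23 CPM. Of 41 interferon response genes 26 were 2-fold or more higher and 5 lower, with GBP3 (156 against 0.2696 CPM) and SAMD9L (178 against 1.59 CPM) higher and IFIT1 (21.02 against 233 CPM), IFIT2 (25.3 against 333 CPM) and the ISG15 ligase HERC5 (0.451 against 85.5 CPM) lower. Of 23 antigen presentation genes 17 were 2-fold or more higher and 2 lower (median 2.37). B2M, the light chain of class I molecules, had 1360.3 against 257 CPM and the immunoproteasome subunit PSMB8 45.2 against 0.341 CPM. HLA genes are polymorphic and similar to each other, so their counts are uncertain.

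Metabolic groups differed in direction. Of 36 glycolysis and hypoxia response genes 23 were 2-fold or more higher and 3 lower (median 1.32), with the pyruvate kinase PKM at 5073 against 977 CPM, the lactate exporter SLC16A3 at 196 against 2.09 CPM and NDRG1 at 1043 against 50.7 CPM. Of 35 cholesterol and fatty acid genes 14 were 2-fold or more lower and 3 higher (median -0.75). SCD, which desaturates fatty acids, had 143, 131 and 139 CPM in U118-MG and 879.8, 883 and 854 CPM in LN229, FASN 121 against 565 CPM and DHCR7 5.63 against 113 CPM, while the exporter ABCA1 (75.7 against 7.71 CPM) was higher. Of 36 ATF4 and amino acid genes 14 were 2-fold or more lower and 5 higher, among them CBS (1.77 against 45.2 CPM), CTH (5.97 against 64.2 CPM) and MTHFD2 (30.7 against 268 CPM). Of 40 autophagy and lysosome genes 19 were 2-fold or more higher and 5 lower. The proteases CTSB (1333 against 66.7 CPM), CTSL (1311 against 65.6 CPM) and CTSD (474 against 10.96 CPM) and the glycoprotein GPNMB (629.9 against 1.16 CPM) were higher.

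Genes of energy metabolism, ribosomes and protein folding showed different shares of large changes. None of 13 mitochondrially encoded genes and only 1 of 33 nuclear genes of oxidative phosphorylation, NDUFA1 with 37.3 against 78.95 CPM, differed by 2-fold or more. With library totals 8 of the 33 were 2-fold or more lower, beside 7958 of all 21720 genes, and still none of the 13. Of 40 ribosomal protein genes 35 were called lower and 4 higher, 7 and 1 at 2-fold or more (median -0.57), and with library totals 37 were called lower and 1 higher. RPS27L, a paralog of RPS27, was the one higher by 2-fold with 153 against 25.1 CPM, and RPSA had 659.96 against 1845 CPM. Ribosomal protein genes have many processed pseudogenes that can take reads. Of 32 chaperones and unfolded protein response genes 11 were 2-fold or more higher and 2 lower, and the median of 0.39 became -0.05 with library totals. CALR, a chaperone of the endoplasmic reticulum, had 1938 against 627 CPM, and HSP90AA1 2013 against 2942 CPM.

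Detoxification, channel and germline genes also differed widely. Of 42 genes of the NRF2, glutathione and metallothionein group 25 were 2-fold or more higher and 5 lower, with the metallothioneins MT2A and MT1E at 997 against 12.8 CPM and 40.3 against 0.0398 CPM, GSTM3 at 0.165 against 36.6 CPM and GCLC, which makes glutathione, at 10.5 against 48.1 CPM. Members of the GSTM, MT1 and AKR1C families share sequence, so single values are uncertain. Of 63 ion channel genes 27 were 2-fold or more higher and 30 lower. The potassium channel KCNK6 had 112 against 0.05099 CPM, and the calcium channels CACNA1A and CACNA1H, which open at high and low voltage, 94.6 against 0.165 CPM and 0.179 against 79.97 CPM. GRIN2A, a subunit of NMDA receptors for glutamate, had 254, 222 and 229 CPM in U118-MG and 0.0528, 0.157 and 0.0886 CPM in LN229, a log2 difference of 11.14 (SE 0.14, adjusted p = 5.8e-17). Among 20 cancer-testis and germline genes tested 11 were higher and 5 lower at 2-fold or more, with MAGEA12 at 19.1 against 0.0235 CPM, subject to reads shared with its copies, and PRAME at 0.164 against 81.8 CPM and MAGEB2 at 0.0895 against 38.97 CPM.

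**Figure D5:**
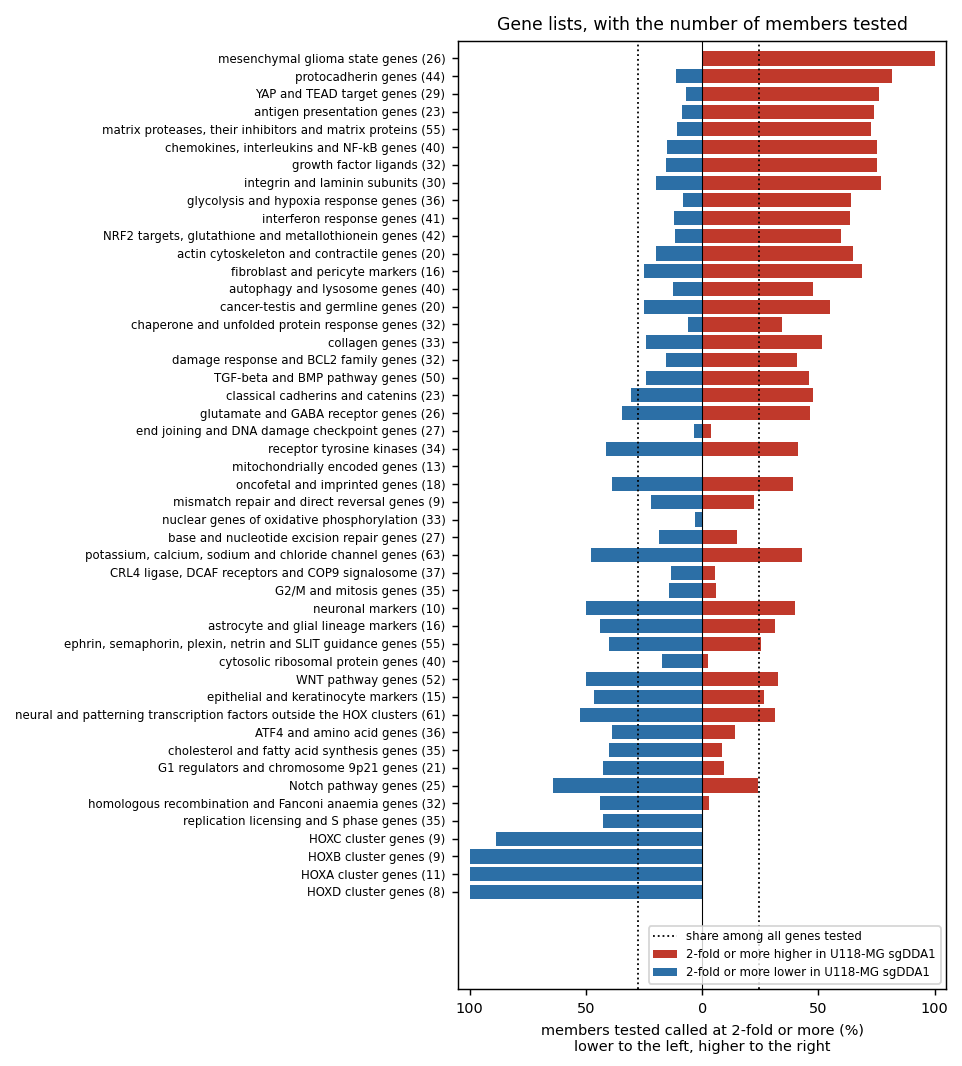
Share of the tested members of each gene list that were called and 2-fold or more higher (red, to the right) or lower (blue, to the left) in U118-MG sgDDA1 than in LN229 sgDDA1, with the number tested in brackets, for the lists with at least 8 members tested. Dotted lines give the shares among all genes tested, 24.4% higher and 27.7% lower, and the lists run from the mesenchymal glioma genes at the top to the HOXD genes at the bottom.

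T98G sgDDA1, the third line with the same guide, is given for the leading genes on the scale over all 18 libraries as mean ± SD of 3 libraries, with no test. FN1 had 35532 ± 2308 CPM in U118-MG, 1985 ± 106 CPM in T98G and 67.5 ± 2.43 CPM in LN229. SLFN11 had 85.9 ± 3.63 CPM in U118-MG, 0.185 ± 0.124 CPM in T98G and 0 counts in LN229. IRS4 had 1.64 ± 0.181 CPM in U118-MG, 7.5003 ± 0.172 CPM in T98G and 2996 ± 191 CPM in LN229. CDKN2A, near 0 in U118-MG, had 0.355 ± 0.0527 CPM in T98G. T98G was thus near U118-MG in IRS4 and CDKN2A and near LN229 in SLFN11. CD44 had 1559 ± 2.36 CPM in U118-MG, 1854 ± 21.3 CPM in T98G and 3.85 ± 0.864 CPM in LN229. HOXA9 had 0.0348 ± 0.0302 CPM in U118-MG, 0.2201 ± 0.0606 CPM in T98G and 44.3 ± 1.75 CPM in LN229.

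Within U118-MG sgDDA1, library 1 stood somewhat apart. Of 9779 genes at 10 CPM or more in that group, 153 in library 1 differed by at least 0.5 on the log2 scale from the mean of the other libraries, against 16 and 22 in libraries 2 and 3, and 6 to 7 in the LN229 libraries. AKR1B1, an aldose reductase, had 912, 367 and 382 CPM, and TNFRSF11B, the decoy receptor osteoprotegerin, 229.9, 106 and 98.05 CPM. Both remained above LN229, at 119.8, 126 and 111 and 0.8801, 1.04 and 2.07 CPM, in every library. Without library 1, 18151 genes were called in place of 17637.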

How the data were processed

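The 18 libraries fall into 6 groups of 3, and the 6 of U118-MG sgDDA1 and LN229 sgDDA1 entered the main fit. The submitters' processing notes name fastp 0.19.6, STAR 2.4.0 and HTSeq 0.12.4 with the build GRCh38, and DESeq2 without a version; their roles are not stated. The authors deposited raw counts for 46218 gene IDs, and FPKM values, which were used for levels per length. Strand and poly(A) selection are not given in the sources used here. Among counts from 1 to 19 in a library, 60.4% to 63.7% were even, for which no reason is given.

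After filterByExpr and TMM scaling, genes were tested by the quasi-likelihood F-test (edgeR 4.0.16, R 4.3.3), adjusted by Benjamini-Hochberg with a threshold of 0.05. DESeq2 1.42.0 and limma 3.58.1 (voom) were alternatives. The procedure was also run on simulated counts in which most genes were unchanged. That run cannot check the scaling where most genes differ, as they do here. Coordinates and gene types are from GENCODE 29 for 44443 of the IDs. A floor of 3 counts per library set bounds on folds, and floors and intervals cover counting error only.

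The comparison and its 50 gene lists were chosen with earlier results of these data known. Of 1564 list entries 1559 had an ID, and PCDHA1, GSTT1, MT1M, CTAG1B and XAGE1B are not analysed here. Lists are described by counts and medians, without a test. Named by rule were DDA1, the 15 largest changes each way among protein-coding genes with at least 10 CPM in the higher group and groups that do not overlap, up to 5 called members each way of a list with at least 1 CPM, its most abundant member, and the 5 most abundant genes of each group. Genes of the Y chromosome were left out, and some other genes are not reported here. CD44, CUL4A, CUL4B, EGFR, MET, NES, MKI67, RB1, CCND2, AKR1B1, TNFRSF11B and the genes at the ends of chromosomal runs or beside them were chosen after their values were seen.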

Additional observations from a re-analysis of the deposited data

Results flagged for a closer look

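The difference between the lines was not the same under both guide labels. A fit over 12 libraries with the labels as given, testing the difference between U118-MG and LN229 under sgDDA1 minus that under sgCon, called 14338 of 23309 genes by edgeR's quasi-likelihood test (Benjamini-Hochberg adjusted p under 0.05). Under sgCon the 2 groups differed at 2-fold or more in 4659 genes, and the median size of the log2 fold change was 1.08 under sgDDA1 and 0.52 under sgCon. For DDA1 the difference between the lines was larger under sgDDA1 by 0.793 on the log2 scale (adjusted p = 0.000478). The libraries labelled U118-MG sgCon held IRS4 at 597 to 1141 CPM and CDKN2A at 67.7 to 121.7 CPM, against 1.49 to 1.84 and 0.135 to 0.227 CPM in U118-MG sgDDA1, on the scale over all 18 libraries. U118-MG is known to lack CDKN2A, so these levels go against the label of the libraries labelled U118-MG sgCon, and which cells they hold was not established.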

How the results depend on the processing

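Under 18 alternatives the count of called genes ran from 14433 (1 CPM in 3 libraries) to 20339 (no filter), against 17637, and no count by direction or at 2-fold moved by more than 1.5 times. Leaving out 1 library at a time gave 17328 to 18151 calls and DDA1 log2 fold changes of 0.84 to 0.93. Library totals gave 34.6% of calls higher, in place of 48.3%, and upper quartile factors 42.7%. DESeq2 called 17333 genes, limma voom 17695 and halved counts 16293.

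Same-numbered libraries of the groups shared no deviation in expression, with correlations of 0.0151, -0.00105 and -0.000824, and a replicate block gave 17180 calls. Such correlations cannot tell whether same-numbered libraries were prepared together.

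Of 4336 values of 241 named genes under these alternatives, 4309 kept direction and call and 18 changed sign. Among those that kept their sign, 7 gained and 2 lost the call. All sign changes are of small differences. With library totals they were GFAP -0.39, MT-CO1 -0.059, NES -0.18, MKI67 -0.41, RB1 -0.32 and PRKDC -0.11, and with upper quartile factors GFAP -0.11, MKI67 -0.14 and RB1 -0.044. Against LN229 sgCon they were MKI67 -0.41 and RB1 -0.21, and CUL4A was 0.019 with all 18 libraries and 5.93e-05 with 15. Leaving out single libraries gave ranges of -0.22 to 0.33 for GFAP, -0.018 to 0.012 for CUL4A and -0.042 to 0.17 for MKI67. Some values that changed sign were called lower: NES with library totals, and MKI67 and RB1 with library totals and against LN229 sgCon. The other values that changed sign, among them MT-CO1 and PRKDC with library totals, were not called. GFAP kept its sign but gained the call against LN229 sgCon, at 1.58 (adjusted p = 0.00441 by edgeR's quasi-likelihood test). The cause was not tested, except that library totals and upper quartile factors shift all genes by -0.45 and -0.17.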
